A study of Drosophila melanogaster with 8 samples.

Results

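Expression of 8 genes that mark or direct intestinal stem cells (ISCs) and their immediate daughters was examined in the intestine of adult flies fed N-acetyl-D-glucosamine (GlcNAc). The genes were esg, Dl, N, Su(H), klu, Sox21a, Sox100B and zfh2, taken by their symbols, with earlier results of these data known. Each of the 8 was found once among the 7671 genes of the table.

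The study asked how the hexosamine biosynthesis pathway, which turns dietary sugar into the donor for protein glycosylation, adapts ISC activity to the diet. Mated Drosophila melanogaster females, 7 days old, were kept for 24 hours on food diluted to 0.25x, which is a calorie restriction. The GlcNAc group received this food with 0.1 M GlcNAc, and the control group received it without GlcNAc. Both groups were of a stock built to mark clones of dividing cells: UAS-mCD8::GFP together with the heat-shock recombinase hsFLP, the driver tub-GAL4, under the ubiquitous tubulin promoter, over a + chromosome, and FRT82B with the repressor tub-GAL80 over FRT82B alone. Whole intestines were dissected, and stranded mRNA libraries were sequenced from 4 samples of each group. The number of flies in a sample is not given in the sources used here, so the p-values measure the spread between these samples.

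In the adult midgut, ISCs divide to renew themselves and to give enteroblasts, which become absorptive enterocytes, or enteroendocrine precursors, which become hormone-secreting cells. Delta, made by the ISC, binds the Notch receptor on the daughter cell. The released intracellular part of Notch then joins Su(H) on DNA and switches on target genes that move the daughter out of the stem cell state. The 8 genes fall into 3 roles: the ligand (Dl), receptor (N) and DNA-binding partner (Su(H)) of the Notch pathway, the factor that holds progenitors undifferentiated (esg), and transcription factors of the ISC and the enteroblast (klu, Sox21a, Sox100B and zfh2).

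The libraries held 9281492 to 10326189 reads on genes on GlcNAc and 8839877 to 9838415 in control. The labels give no batch for the libraries. 1 label field of the samples names whole larvae, whereas the tissue field names the intestine. The treatment field of the GlcNAc samples reads glucosamine, whereas their titles and the treatment protocol name GlcNAc. Of 8 digestive enzymes of the enterocyte 6 were measured, and together they reached 46283 to 50023 CPM (read counts scaled by the depth of each library) on GlcNAc and 49564 to 59868 CPM in control. Of 9 ovary markers only grk was in the table, with 1.39 to 2.70 CPM on GlcNAc and 0.839 to 2.40 CPM in control. Yp1 and Yp3, the yolk protein genes that stood for the fat body, together reached 79.3 to 267.0 CPM on GlcNAc and 21.5 to 533.8 CPM in control.

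None of the 8 stem cell and progenitor genes passed the test between the diets. With limma and Benjamini-Hochberg adjustment over 7671 genes, 0 of 8 had an adjusted p under 0.05, and the lowest adjusted p was 0.252, for Sox100B. The count was also 0 of 8 at an unadjusted p under 0.05, and 0 of 8 with voom weights. Of all genes tested, 15.3% passed the threshold, with 8.75% higher on GlcNAc and 6.6% lower, and 27.6% had an unadjusted p under 0.05. The mean expression was higher on GlcNAc for Dl, N, klu, Sox21a and Sox100B on the log2 scale, and it was lower or level for esg, Su(H) and zfh2. The median log2 fold change of the 8 genes was 0.11, beside 0.01 for all genes, of which 52.8% lay above 0. With 1 library left out this median of the 8 ranged from 0.04, without GlcNAc replicate 4, to 0.20, without control replicate 1. In no member did the 4 GlcNAc libraries lie wholly on one side of the 4 control libraries, whereas 20.5% of the genes in the table were separated in this way.

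The intestine was sequenced whole, so that fewer cells of a type and less RNA per cell cannot be told apart. The 95% intervals say how large a change these libraries leave possible: the interval of the fold lay within a 2-fold change in either direction for 8 of 8 genes and within 1.5-fold for 5 of 8.

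**Figure D1:**
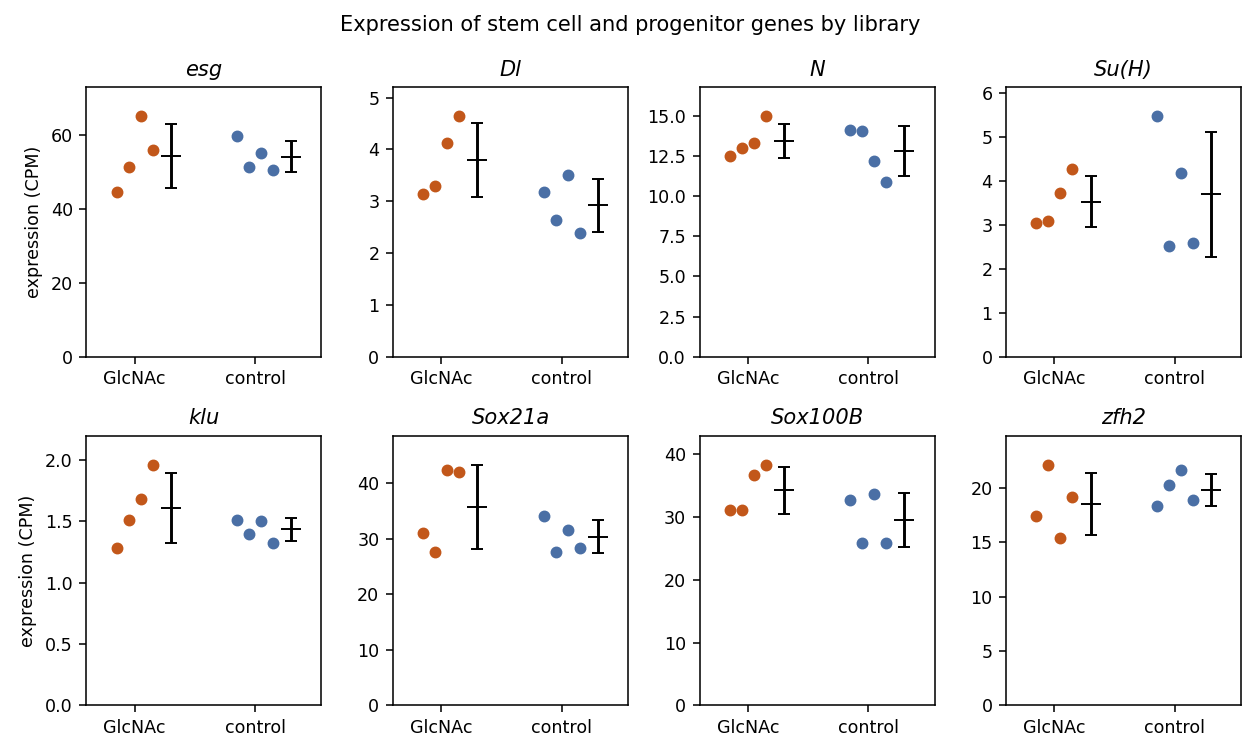
Expression of the 8 stem cell and progenitor genes in CPM (linear axis from 0) in each library, with GlcNAc libraries on the left and control libraries on the right of each panel, replicates 1 to 4 from left to right, and a bar for the mean ± SD (n = 4 each). The groups overlap in all 8 panels. The SD of esg, Dl, klu, Sox21a and zfh2 is wider on GlcNAc than in control, and that of N, Su(H) and Sox100B is narrower.

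The transcription factor Escargot, encoded by esg, belongs to the Snail family and is the usual marker of ISCs and enteroblasts together. Its single exon lies on chromosome arm 2L at 15333866 to 15336138, plus strand, of the BDGP6 assembly. esg was expressed at 44.5, 51.5, 65.2 and 56.1 CPM in the GlcNAc libraries and at 59.7, 51.3, 55.1 and 50.6 CPM in the control libraries. The lowest and the highest of the 8 values were both from GlcNAc libraries, and the control values lay between them. The mean was 54.3 ± 8.67 CPM on GlcNAc and 54.2 ± 4.19 CPM in control (SD, n = 4 each). This gave a log2 fold change of -0.01 (SE 0.11, 95% interval -0.25 to 0.24; limma, adjusted p = 0.98). In fold terms the interval ran from 0.839 to 1.18. On the log2 scale it was the narrowest of the 8 genes, with those of N, zfh2 and Sox100B nearly as narrow.

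Dl encodes Delta, the membrane-bound Notch ligand by which ISCs are told from their daughters. The gene lies on 3R at 19302731 to 19326217, minus strand. It was measured from 30, 31, 40 and 48 reads on GlcNAc and from 30, 23, 31 and 22 reads in control. These corresponded to 3.14, 3.29, 4.13 and 4.64 CPM on GlcNAc and to 3.18, 2.63, 3.51 and 2.38 CPM in control. GlcNAc replicates 3 and 4 exceeded every control library, while GlcNAc replicates 1 and 2 fell within the control range. All 4 GlcNAc values lay above the control mean. Dl averaged 3.80 ± 0.711 CPM on GlcNAc and 2.92 ± 0.513 CPM in control (SD, n = 4 each). Its log2 fold change of 0.38 (SE 0.20, 95% interval -0.07 to 0.82) was the largest of the 8 and did not pass the test (limma, adjusted p = 0.262; two-sided exact permutation p = 0.1429). The interval of the fold, from 0.953 to 1.76, holds both no change and a rise of more than 1.5-fold. At 22 to 48 reads, counting alone gives an SD of 0.241 on the log2 scale on GlcNAc and 0.284 in control. The observed SDs of Dl were 0.269 on GlcNAc and 0.254 in control, so most of its spread between libraries was of the size of counting error.

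N encodes the Notch receptor, which both ISCs and enteroblasts carry. It lies on the X chromosome at 3134870 to 3172221, plus strand. N was expressed at 12.5, 13.0, 13.3 and 14.97 CPM on GlcNAc and at 14.1, 14.0, 12.2 and 10.8 CPM in control. Only GlcNAc replicate 4 exceeded the control range, and control replicates 3 and 4 were the lowest of the 8. Its log2 fold change was 0.08 (SE 0.11, 95% interval -0.17 to 0.32; limma, adjusted p = 0.726).

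Suppressor of Hairless, encoded by Su(H), is the DNA-binding protein through which Notch acts, and reporters built on its sites mark the enteroblast. The gene lies on 2L at 15039488 to 15043334, plus strand. Su(H) was measured at 3.03, 3.08, 3.72 and 4.26 CPM on GlcNAc and at 5.47, 2.52, 4.18 and 2.59 CPM in control. The GlcNAc values all lay inside the control range, which spread from the lowest to the highest of the 8 libraries. Its means were 3.52 ± 0.582 CPM on GlcNAc and 3.69 ± 1.41 CPM in control (SD, n = 4 each). Its log2 fold change was -0.00 with the widest interval of the 8 genes, -0.59 to 0.59 (limma, adjusted p = 0.997). The log2 SD of Su(H) in control was 0.546, against 0.263 from counting alone, whereas on GlcNAc it was 0.234 against 0.249. The counted RNA of N and Su(H) does not report how much receptor was cleaved, and target genes of the pathway are given further on.

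klu encodes Klumpfuss, a zinc finger factor of the enteroblast that holds these cells on the path to the enterocyte. It lies on 3L at 10981171 to 11009188, minus strand, and had the fewest reads of the 8 genes. There were 12, 14, 16 and 20 reads on GlcNAc and 14, 12, 13 and 12 reads in control. The expression was 1.29, 1.51, 1.68 and 1.96 CPM on GlcNAc and 1.51, 1.40, 1.504 and 1.32 CPM in control. GlcNAc replicates 3 and 4 were above every control library, GlcNAc replicate 2 was level with the highest of them, and GlcNAc replicate 1 was below every control library. The log2 fold change was 0.15 (SE 0.24, 95% interval -0.37 to 0.68; limma, adjusted p = 0.737). The means were 1.61 ± 0.285 CPM on GlcNAc and 1.43 ± 0.0902 CPM in control (SD, n = 4 each). The control SD of klu, 0.0917 on the log2 scale, was smaller than the 0.405 that counting alone gives.

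Sox21a encodes a SoxB-type factor of ISCs and enteroblasts that is needed for enteroblasts to differentiate. It lies on 3L at 14103481 to 14108118, minus strand. Sox21a was expressed at 31.1, 27.6, 42.3 and 42.05 CPM on GlcNAc and at 34.1, 27.6, 31.6 and 28.3 CPM in control. GlcNAc replicates 3 and 4 stood above the control range by over 7 CPM, and GlcNAc replicates 1 and 2 lay within it. The mean was 35.8 ± 7.56 CPM on GlcNAc and 30.4 ± 3.03 CPM in control (SD, n = 4 each). The log2 fold change was 0.22 (SE 0.14, 95% interval -0.10 to 0.53; limma, adjusted p = 0.382). With 246 to 439 reads per library the counting SD was only 0.0783 on GlcNAc and 0.0866 in control on the log2 scale, and the observed SDs of 0.312 on GlcNAc and 0.143 in control exceeded it in both groups.

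Sox100B encodes a SoxE-type factor that is present in midgut progenitors. It lies on 3R at 31065253 to 31083407, plus strand. It was expressed at 31.1, 31.0, 36.6 and 38.3 CPM on GlcNAc and at 32.8, 25.8, 33.6 and 25.9 CPM in control. GlcNAc replicates 3 and 4 were the highest libraries, which they also were for Sox21a, and control replicates 2 and 4 were the lowest for Sox100B. The 4 GlcNAc values lay above the control mean but overlapped control replicates 1 and 3. Sox100B averaged 34.3 ± 3.76 CPM on GlcNAc and 29.5 ± 4.26 CPM in control (SD, n = 4 each). The log2 fold change was 0.22 (SE 0.12, 95% interval -0.04 to 0.48), with an adjusted p of 0.252 in limma and a two-sided exact permutation p of 0.1714.

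The factor encoded by zfh2 carries zinc fingers and homeodomains and is expressed in midgut progenitors. The gene lies on chromosome 4 at 501810 to 540874, plus strand. Its exons overlap those of Tdg on the other strand, and the reads had been counted by strand. zfh2 was expressed at 17.4, 22.2, 15.4 and 19.2 CPM on GlcNAc and at 18.4, 20.3, 21.7 and 18.9 CPM in control. It was the member with the lowest log2 fold change, -0.10 (SE 0.12, 95% interval -0.36 to 0.15; limma, adjusted p = 0.626). GlcNAc replicate 3, which was highest for esg and Sox21a, was the lowest library for zfh2.

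**Figure D2:**
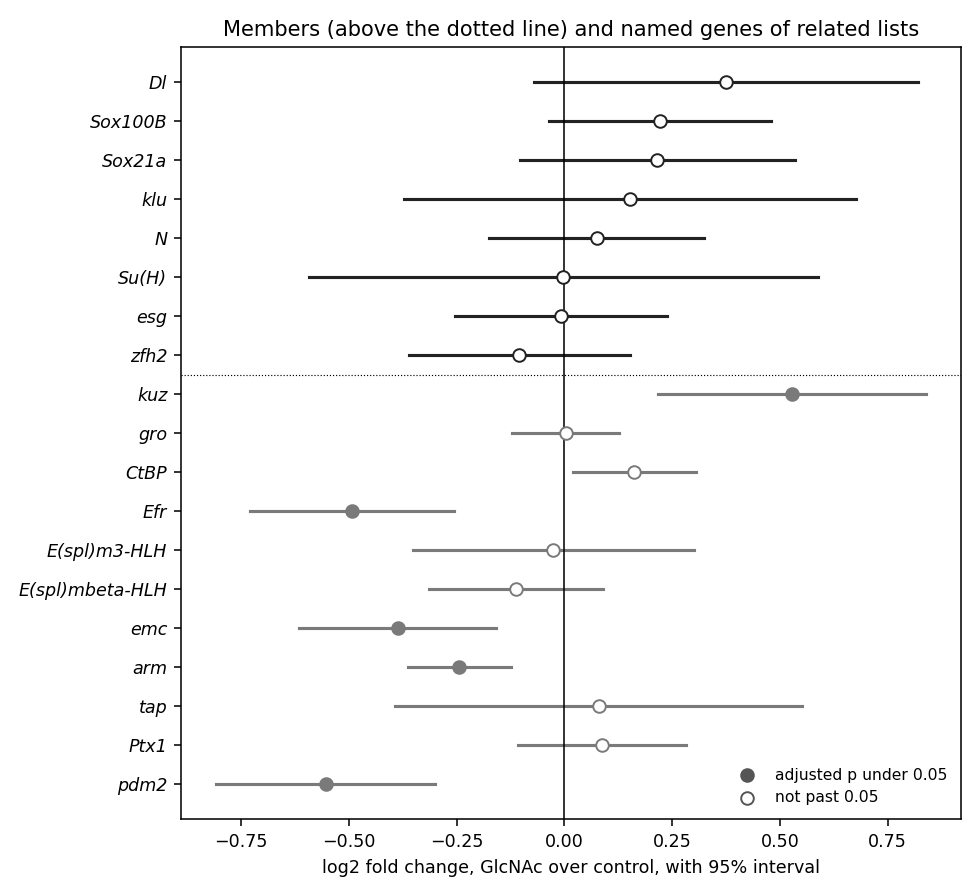
Log2 fold change of expression, GlcNAc over control, with its 95% interval from limma (n = 4 each), for the 8 stem cell and progenitor genes above the dotted line and the named genes of the Notch, progenitor and fate lists below it. Filled points have an adjusted p under 0.05, and the intervals of all 8 genes above the line include 0.

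The 8 genes were expressed at very different levels. Divided by exon length, esg was highest with 23.9 ± 3.82 CPM per kb on GlcNAc and 23.8 ± 1.84 CPM per kb in control (SD, n = 4 each). Sox100B followed with 16.7 ± 1.84 CPM per kb on GlcNAc and 14.4 ± 2.08 in control, and Sox21a with 15.3 ± 3.24 CPM per kb on GlcNAc and 13.0 ± 1.30 in control. These 3 transcription factors stood apart from the rest, since Sox21a was on average 9.18-fold above zfh2 per length. zfh2 had 1.49 ± 0.230 CPM per kb on GlcNAc and 1.59 ± 0.119 in control, N had 1.32 ± 0.106 on GlcNAc and 1.26 ± 0.155 in control, and Su(H) had 1.19 ± 0.197 on GlcNAc and 1.25 ± 0.479 in control. Dl had 0.720 ± 0.135 CPM per kb on GlcNAc and 0.554 ± 0.0972 in control, and klu was lowest with 0.336 ± 0.0594 on GlcNAc and 0.299 ± 0.0188 in control.

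Between neighbours in this order, Sox100B exceeded Sox21a in 7 of 8 libraries, zfh2 exceeded N in 7 of 8, and N exceeded Su(H) in 6 of 8. The ranges of these pairs overlapped over the libraries, and their order was not tested. Su(H) exceeded Dl in 8 of 8 libraries although their ranges overlapped. The ranges of esg and Sox100B, of Sox21a and zfh2, and of Dl and klu did not overlap over the 8 libraries. Without division by length, the mean log2 CPM of esg over the 8 libraries exceeded that of 68.0% of the genes in the table, while Dl exceeded 12.5% and klu 4.63%. The Notch ligand and the enteroblast factor were therefore read from a much thinner count than the pan-progenitor marker.

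**Figure D3:**
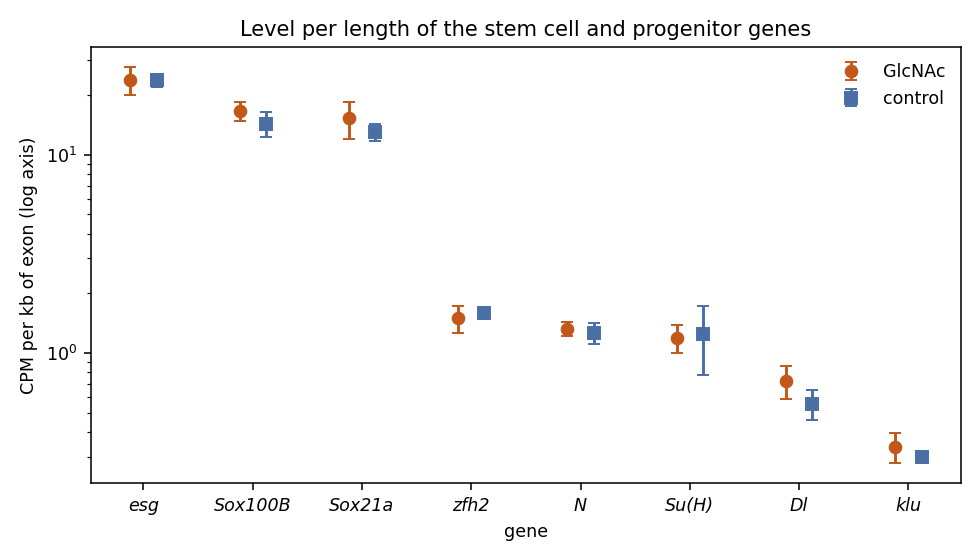
Level of the 8 stem cell and progenitor genes in CPM per kb of exon (log axis), ordered by their mean, with GlcNAc as circles and control as squares, and bars for the SD (n = 4 each). The markers of the 2 groups lie side by side for every gene, and esg, Sox100B and Sox21a form a separate high set.

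The level of each gene relative to esg is a ratio of values from the whole intestine, and whether both came from the same cells was not tested. The Dl to esg ratio of CPM values was 0.0701 ± 0.00902 on GlcNAc and 0.0538 ± 0.00709 in control (SD, n = 4 each). The single libraries gave 0.0705, 0.0638, 0.0633 and 0.0827 on GlcNAc and 0.0532, 0.0513, 0.0637 and 0.0470 in control. Control replicate 3 fell among the GlcNAc values, so the groups overlapped. For Sox21a the ratio to esg was 0.659 ± 0.0913 on GlcNAc and 0.560 ± 0.0163 in control, and for Sox100B it was 0.637 ± 0.0652 on GlcNAc and 0.543 ± 0.0487 in control (SD, n = 4 each). The ratio of zfh2 to esg was 0.350 ± 0.0839 on GlcNAc and 0.367 ± 0.0411 in control, and the sign of this log2 difference, -0.10, turned to 0.08 without GlcNAc replicate 3. None of the 7 ratios separated the groups.

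Several members were high or low in the same libraries of a diet, and whether they were so more than other genes was not tested. Counting error enters these ranks for Dl, Su(H) and klu, which had 12 to 52 reads per library. GlcNAc replicate 4 was the highest of the 8 libraries for 4 members and among the highest 2 for 6 members, and GlcNAc replicate 3 was among the highest 2 for 5. Control replicate 4 was among the lowest 2 libraries for 6 members, and control replicate 2 was the lowest for 3. GlcNAc replicate 1, in contrast, was among the highest 2 for 0 members and the lowest of all for esg and klu. The summed expression of the 8 genes was 144.1, 153.1, 182.4 and 181.5 CPM on GlcNAc and 169.2, 145.5, 163.3 and 140.8 CPM in control. The lowest sum was from a control library and the highest from a GlcNAc library, with the other libraries intermixed.

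Genes of mitosis and DNA replication, which in the adult midgut are used by dividing ISCs and by daughters that replicate their DNA without dividing, differed between the same libraries. Of 19 such genes 16 were measured. In limma 0 of 16 passed the test, beside 15.3% of all genes, and 0 had an unadjusted p under 0.05, beside 27.6%. With voom weights the count was also 0 of 16. Their median log2 fold change was 0.17, with 12 of 16 above 0, whereas all genes had a median of 0.01 with 52.8% above 0. The summed expression of the 16 was 163.4, 119.2, 197.0 and 181.3 CPM on GlcNAc and 161.2, 112.1, 179.2 and 133.5 CPM in control. GlcNAc replicates 3 and 4 had the highest sums, as they had for the members, and replicate 2 of each group had the lowest of its group. RnrS and RnrL, the subunits of ribonucleotide reductase, had the most reads of this list. RnrS averaged 60.1 ± 10.4 CPM on GlcNAc and 56.2 ± 11.0 CPM in control, and RnrL 21.3 ± 6.30 CPM on GlcNAc and 18.7 ± 4.26 CPM in control (SD, n = 4 each). The part of cell division in the levels of the 8 genes was not tested.

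**Figure D4:**
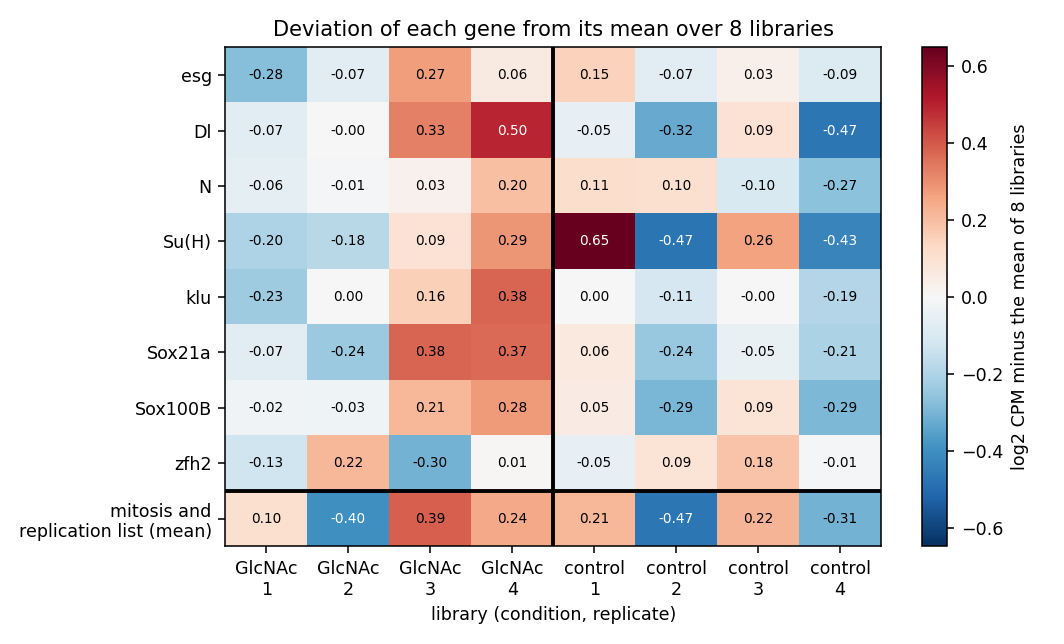
Log2 CPM of each stem cell and progenitor gene in each library minus its mean over the 8 libraries, as colour and value, with the 4 GlcNAc libraries left of the 4 control libraries and the mean deviation of the mitosis and replication list in the bottom row. GlcNAc replicate 3 is at 0.27 for esg and 0.38 for Sox21a but at -0.30 for zfh2, and control replicate 4 is below 0 in every row.

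By the Euclidean distance between log2 CPM profiles over the 8 libraries, each centred on its own mean, the genes most like esg among 7670 others were AP-1sigma (distance 0.178), which encodes a subunit of a clathrin adaptor, Tm1 (0.188), a tropomyosin, and CG7029 (0.194). AP-1sigma averaged 85.5 ± 9.34 CPM on GlcNAc and 83.5 ± 4.75 CPM in control, Tm1 130.0 ± 16.4 CPM on GlcNAc and 128.4 ± 3.69 CPM in control, and CG7029 49.9 ± 7.20 CPM on GlcNAc and 51.7 ± 1.89 CPM in control (SD, n = 4 each). Like esg, they had nearly equal means and a wider spread on GlcNAc, which follows from their choice by this distance over the same libraries. The members themselves were less close to esg. klu ranked 441 of 7670, N 1010, Sox100B 1127 and Sox21a 1336, while Dl ranked 4156, zfh2 4450 and Su(H) 5167. Counting error enters this distance. For Dl, Su(H) and klu, with 12 to 52 reads per library, the ranks therefore cannot say how far their levels followed esg.

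The Notch pathway beyond Dl, N and Su(H) was read from 44 further genes, of which 29 were measured. In limma 1 of 29 rose on GlcNAc and 1 of 29 fell, beside 8.75% and 6.6% of all genes, with a median log2 fold change of 0.06. An unadjusted p under 0.05 in limma was reached by 8 of 29, beside 27.6% of all genes. Among 17 genes for ligands, receptor cleavage and trafficking, 13 of 17 log2 fold changes lay above 0, beside 52.8% of all genes. The median of the 17 was 0.15, and kuz was the 1 gene past the threshold. kuz encodes Kuzbanian, the metalloprotease that cuts Notch outside the membrane once Delta is bound. kuz was expressed at 14.2, 22.3, 18.3 and 19.9 CPM on GlcNAc and at 14.8, 11.7, 12.5 and 12.3 CPM in control. GlcNAc replicate 1 lay below control replicate 1, while the other 3 GlcNAc libraries exceeded every control library. The mean was 18.7 ± 3.38 CPM on GlcNAc and 12.8 ± 1.38 CPM in control (SD, n = 4 each). Its log2 fold change was 0.53 (SE 0.14, 95% interval 0.22 to 0.84; limma, adjusted p = 0.0287; two-sided exact permutation p = 0.0571). The call was lost, with a limma adjusted p of 0.0587 to 0.0828, without GlcNAc replicate 2, 3 or 4 or without control replicate 2, 3 or 4.

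The genes of the gamma-secretase complex, which makes the next cut, had log2 fold changes of 0.11 for Psn, 0.15 for nct, 0.34 for aph-1 and 0.43 for pen-2. Of these 4, 0 passed the test, beside 15.3% of all genes. neur, which encodes the ubiquitin ligase that sends Delta into endocytosis, is named here after its values were seen. It was expressed at 32.3, 32.8, 35.9 and 35.7 CPM on GlcNAc and at 38.0, 38.8, 40.8 and 41.0 CPM in control. The 2 groups did not overlap, but its log2 fold change of -0.21 missed the threshold (95% interval -0.36 to -0.07; limma, adjusted p = 0.0567; two-sided exact permutation p = 0.0286, the smallest that 4 against 4 libraries allow).

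In the nuclear complex and its co-repressors 0 of 5 genes passed the test in limma, beside 15.3% of all genes. At an unadjusted p under 0.05 the count was 1 of 5, beside 27.6%, and with voom weights it was 0 of 5. The co-repressor gene gro averaged 66.1 ± 1.90 CPM on GlcNAc and 66.0 ± 2.41 CPM in control, and CtBP 225.8 ± 17.5 CPM on GlcNAc and 201.3 ± 4.21 CPM in control (SD, n = 4 each). The groups did not overlap for CtBP, with a log2 fold change of 0.16 (limma, adjusted p = 0.126), and it passed the threshold only when the libraries were scaled by their totals (adjusted p = 0.0391).

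Notch is glycosylated on its way to the surface, and 4 of 8 genes for this step were measured. Efr, which encodes a nucleotide sugar transporter of the endoplasmic reticulum, fell on GlcNAc. It was expressed at 59.3, 58.0, 54.2 and 49.6 CPM on GlcNAc and at 68.5, 95.1, 70.03 and 79.4 CPM in control, without overlap. The mean was 55.3 ± 4.36 CPM on GlcNAc and 78.3 ± 12.2 CPM in control (SD, n = 4 each), a log2 fold change of -0.49 (SE 0.11, 95% interval -0.73 to -0.26; limma, adjusted p = 0.0114; two-sided exact permutation p = 0.0286). The other 3 measured genes, fng, shams and Eogt, which encode glycosyltransferases, had log2 fold changes of 0.29, 0.27 and 0.18 and did not pass the test.

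Of 14 Notch target genes of the E(spl) and Bearded families, 3 were measured. E(spl)m3-HLH averaged 24.0 ± 3.76 CPM on GlcNAc and 24.4 ± 4.31 CPM in control, with a log2 fold change of -0.03 (limma, adjusted p = 0.941). E(spl)mbeta-HLH averaged 18.3 ± 0.833 CPM on GlcNAc and 19.9 ± 2.01 CPM in control, with a log2 fold change of -0.11 (limma, adjusted p = 0.48). Both encode repressors that Notch induces. The remaining gene, E(spl)malpha-BFM of the Bearded family, averaged 8.05 ± 1.06 CPM on GlcNAc and 10.9 ± 2.39 CPM in control, with a log2 fold change of -0.43 (limma, adjusted p = 0.114). Of the 3, 0 passed the test in limma, beside 15.3% of all genes. At an unadjusted p under 0.05 the count was 1 of the 3, beside 27.6%, and with voom weights it was 0. The mean of each was lower on GlcNAc, while that of the ligand Dl was higher, and none of these 4 differences passed the test.

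Of 15 other regulators of ISCs and progenitors 14 were measured, with a median log2 fold change of 0.06. In limma 0 of 14 rose and 2 of 14 fell, beside 8.75% and 6.6% of all genes. An unadjusted p under 0.05 in limma was reached by 4 of 14, beside 27.6% of all genes. arm encodes beta-catenin, which acts in Wnt signalling and at adherens junctions. In the single libraries arm was at 301.6, 304.2, 296.5 and 323.9 CPM on GlcNAc and at 371.6, 359.1, 365.7 and 354.4 CPM in control. The groups were well separated, with means of 306.6 ± 12.02 CPM on GlcNAc and 362.7 ± 7.51 CPM in control (SD, n = 4 each). The log2 fold change of arm was -0.24 (SE 0.05, 95% interval -0.36 to -0.12; limma, adjusted p = 0.013).

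emc encodes a helix-loop-helix protein without a DNA-binding region, which holds the factor Daughterless inactive. It was expressed at 73.8, 88.9, 81.6 and 86.4 CPM on GlcNAc and at 119.2, 124.1, 92.1 and 99.2 CPM in control, without overlap. Its log2 fold change was -0.39 (SE 0.10, 95% interval -0.62 to -0.16; limma, adjusted p = 0.0297). The emc call was lost without GlcNAc replicate 1, 3 or 4, without control replicate 1 or 2, and without the mean-variance trend, with limma adjusted p values of 0.0561 to 0.0849. Both genes are expressed in many cells of the intestine besides progenitors.

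The fates that follow the progenitor were read from lists of transcription factors. Of 9 factors of the enteroendocrine fate 3 were measured. In limma 0 of 3 passed the threshold, beside 15.3% of all genes, and 0 had an unadjusted p under 0.05, beside 27.6%. With voom weights 0 of these 3 factors passed. Among them Ptx1 averaged 124.5 ± 12.4 CPM on GlcNAc and 117.1 ± 11.0 CPM in control, and tap 2.64 ± 0.465 CPM on GlcNAc and 2.50 ± 0.449 CPM in control (SD, n = 4 each). All 8 factors and markers of the enterocyte fate were measured, and 0 rose and 1 fell, beside 8.75% and 6.6% of all genes. pdm2, a POU-domain factor related to the enterocyte marker nub, was expressed at 18.8, 17.4, 21.3 and 23.3 CPM on GlcNAc and at 33.0, 31.6, 28.1 and 25.7 CPM in control. Its log2 fold change was -0.55 (SE 0.11, 95% interval -0.81 to -0.30; limma, adjusted p = 0.00889). The marker nub itself averaged 327.9 ± 32.4 CPM on GlcNAc and 283.7 ± 35.4 CPM in control (SD, n = 4 each), with a log2 fold change of 0.21 in the other direction that did not pass the test (limma, adjusted p = 0.203).

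Lists for the differentiated cells and for tissues that a dissection may carry along gave the surroundings of these values. Of 9 enteroendocrine hormones 3 rose, CCHa2, AstA and Dh31, whereas 8.75% of all genes rose and 6.6% fell. The summed expression of the 9 was 323 to 366 CPM on GlcNAc and 274 to 343 CPM in control. Of their log2 fold changes 8 lay above 0 and 1 below, with a median of 0.33. Of the 6 digestive enzymes Mal-A1 rose, to 8152 ± 2192 CPM on GlcNAc against 4213 ± 468 CPM in control (SD, n = 4 each), while Jon99Ciii and Jon25Bi fell. Visceral muscle genes summed to 1054 to 1450 CPM on GlcNAc and 1210 to 1691 CPM in control. In limma 1 of 11, Act57B, fell, beside 6.6% of all genes. Of the 11 log2 fold changes 10 lay below 0 and 1 above, with a median of -0.17, whereas 52.8% of all genes lay above 0. Of the Malpighian tubule markers 2 of 6 were measured and Best2 rose, with summed levels of 94.1 to 118.7 CPM on GlcNAc and 105.4 to 116.0 CPM in control. Hemocyte markers (2 of 7 measured) summed to 15.7 to 34.9 CPM on GlcNAc and 9.48 to 41.6 CPM in control. Tracheal markers (2 of 4) reached 10.1 to 12.8 CPM on GlcNAc and 6.98 to 14.0 CPM in control, and neuronal markers (3 of 5) 6.21 to 8.18 CPM on GlcNAc and 5.05 to 9.58 CPM in control. AstA, Dh31, Best2 and Jon25Bi were close to the threshold, with limma adjusted p values of 0.047, 0.0482, 0.0497 and 0.0301. With 1 library left out, AstA kept its call only without replicate 2 of either group, Dh31 only without control replicate 2, and Best2 only without GlcNAc replicate 3 or control replicate 4. Jon25Bi kept it only without GlcNAc replicate 2 or control replicate 4. Without each of the other libraries the limma adjusted p of these 4 genes was 0.051 to 0.124. Of the 4 calls, those of AstA and Best2 were also lost without the trend and with voom weights, quantile normalization or median centring. Dh31 was lost without the trend and under both of these normalizations, and Jon25Bi without the trend, with adjusted p values of 0.0504 to 0.0933 over these fits. Of the ovary, fat body, hemocyte, tracheal and neuronal genes 0 passed the test in limma, beside 15.3% of all genes. At an unadjusted p under 0.05 the count was 0, beside 27.6%, and with voom weights it was 0. The part of these tissues in the levels of the 8 stem cell and progenitor genes was not tested.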

How the data were processed

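RNA-seq of whole dissected intestines was analysed, with 4 libraries from flies on GlcNAc and 4 from control flies, grouped by the sample titles. The authors trimmed single-end reads with Trimmomatic, mapped them with TopHat 2.1.0 to the FlyBase genome and counted them by strand with HTSeq, discarding alignments with a quality below 10. Genes above 1 CPM in 3 or more of the 4 replicates of either diet were retained by them. The deposited values are log2 CPM of 7671 genes, scaled between libraries with an offset of 0.5 read. The deposited table also holds the authors' mean, fold change, t, F, p and adjusted p, which were not used. Reads were recovered from the log2 CPM steps, and 100.0% of 61368 values came out whole within 0.01 read.

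The deposited log2 values entered a linear model of diet alone in limma 3.58.1 (R 4.3.3), with lmFit and a trended eBayes. Benjamini-Hochberg adjustment ran over 7671 genes, and the threshold was 0.05. The fit was tested on simulated data. Single genes were also compared by a two-sided exact permutation test over the 70 assignments of the libraries, whose smallest p is 0.0286. CPM values are 2 to the power of the deposited values, and counting SDs cover counting error only. Positions and exon lengths are from the Ensembl annotation of the BDGP6 assembly, in which 8 of 8 members matched. No sequence is printed.

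The text names all 8 members, in each other list the genes past the threshold (at most 4, by p) or else the 2 with the highest mean CPM, and the 3 genes most like esg. Other genes, such as neur, fng and the gamma-secretase genes, were chosen after their values were seen. The members and lists were chosen with earlier results of these data known. Alternatives were the fit without the trend, a replicate block, voom weights, library totals, quantile normalization, median centring, pseudocounts of 0.1 and 2 CPM, a filter of 10 CPM, thresholds of 0.01 and 0.1, and each library left out in turn.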

Additional observations from a re-analysis of the deposited data

Results flagged for a closer look

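No member had a library that stood apart from the others of its group in the 16 groups of 4 values examined. Among the 38 named genes, 4 of 76 groups held 1 library far from the other 3, and chance alone flags about 1 group in 20. Act57B, a muscle actin, was at 107.1 CPM in GlcNAc replicate 1 and at 152.9 to 156.7 CPM in the other GlcNAc libraries. Nplp2, a hemocyte marker, was at 34.2 CPM in GlcNAc replicate 2 and at 14.1 to 16.0 CPM in the others. The tracheal marker btl was at 7.69 CPM in GlcNAc replicate 3 and at 10.6 to 11.1 CPM in the others, and the tracheal marker trh at 1.72 CPM in control replicate 1 and at 2.38 to 2.40 CPM in the others.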

How the results depend on the processing

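Over 133 alternative values of the 8 members 0 passed the threshold in limma, and the lowest adjusted p was 0.12. Dl, klu, Sox21a, Sox100B and zfh2 kept their direction in all of them that could be computed, whereas the filter of 10 CPM left out Dl, Su(H) and klu. With library totals 7 of the 8 members lay above 0, with esg at 0.047 and Su(H) at 0.051, and the median of all genes was 0.067. With 1 library left out, the log2 fold change ranged from -0.10 to 0.084 for esg, from -0.0013 to 0.13 for N, from -0.16 to 0.21 for Su(H), from 0.27 to 0.47 for Dl, from 0.05 to 0.26 for klu, from 0.13 to 0.33 for Sox21a, from 0.16 to 0.29 for Sox100B and from -0.19 to -0.02 for zfh2. The median of the members was 0.05 with quantile normalization and 0.17 with library totals, beside -0.016 and 0.067 for all genes. Library totals also gave 866 genes higher and 408 lower on GlcNAc, beside 671 and 506, and the threshold of 0.01 gave 328 higher and 246 lower. In the Notch lists the genes higher on GlcNAc numbered 4 with library totals, 0 at 0.01, 2 at 0.1 and 0 to 2 with 1 library left out. Those lower numbered 2 with quantile normalization, with median centring, with the filter of 10 CPM and at 0.1, and 0 at 0.01. The progenitor regulators that fell numbered 1 without the trend, 0 at 0.01, and 1 to 2 with 1 library left out. Changes of direction without a call were seen for gro (-0.010 with quantile normalization, -0.017 with median centring, -0.015 to 0.028 with 1 library left out), E(spl)m3-HLH (0.028 with library totals, -0.11 to 0.086) and tap (-0.0026 with quantile normalization, -0.019 to 0.18). They were also seen with 1 library left out for grk (-0.12 to 0.39), Yp1 (-1.17 to 0.32), Yp3 (-1.37 to 0.46), Nplp2 (-0.26 to 0.50) and RnrS (-0.012 to 0.22). The cause of these changes was not tested.

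With the replicate block, 746 genes were higher and 578 lower, and 0 members passed, while AstA (adjusted p = 0.0583) and Dh31 (adjusted p = 0.0502) were no longer past the threshold in limma. Same-numbered libraries correlated at 0.21, 0.40, 0.15 and -0.06 in their deviations from the group means. Of the 4 pairs 3 were above 0.1. The paper states that samples of both groups were taken in parallel, but it does not link single samples by number. The labels state no shared batch or day for a number, so pairing was not established. GlcNAc replicates 1 and 2 correlated best with their own number, and GlcNAc replicates 3 and 4 with control replicates 1 and 3. Dl, Su(H) and klu were read from 12 to 52 reads per library.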
